A study of Mus musculus with 2 samples.

Results

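The Wnt pathway regulators and targets described here are 10 genes (*Axin2*, *Apcdd1*, *Lef1*, *Notum*, *Wif1*, *Rnf43*, *Znrf3*, *Nkd1*, *Ctnnb1* and *Apc*), chosen by symbol from the 55450 genes of the count tables. All 10 were found. Single cells of mouse cerebral cortex were profiled in 2 scRNA-seq libraries of C57BL/6 mice, 1 control and 1 with white matter injury (WMI). Per the labels, the right common carotid artery was ligated on postnatal day 7 with 1 h of hypoxia, and cortex was taken on postnatal day 14 (2 weeks old) from the ligated side of WMI mice and from the same side of controls. The labels do not say whether control mice had a sham operation or hypoxia, and they speak of nuclei where the study's methods describe dissociated cells. Those methods also give an earlier postnatal day of surgery, an earlier age at sampling and a longer hypoxia than the labels, so the age of the mice is uncertain. After filtering, 8755 control cells and 7571 WMI cells were kept, with medians of 4579 and 5102 unique molecular identifiers (UMIs, which count captured RNA molecules). Because each group was a single library, the spread between mice is unknown, the values are given without tests, and no difference has been checked in replicates.

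In canonical Wnt signalling, a secreted Wnt protein binds a Frizzled receptor with LRP5 or LRP6. This stops a cytoplasmic destruction complex, built on AXIN and APC, from marking β-catenin (*Ctnnb1*) for degradation, and β-catenin then acts with TCF and LEF factors on target genes. Many targets are inhibitors that feed back on the pathway. In the oligodendrocyte (OL) lineage, strong β-catenin signalling is known to delay the step from oligodendrocyte precursor cells (OPCs) to premyelinating OLs (pre-OLs), and in brain vessels it maintains the blood-brain barrier. The *Ctnnb1* transcript does not measure β-catenin protein, which is regulated mainly by degradation.

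Cells were clustered without these 10 genes and named from marker lists. The OPC-like cluster met 9 of 9 OPC markers, the pre-OL-like cluster 9 of 11 pre-OL markers and also 6 of 9 OPC markers, and the cluster of mature OL-like cells 10 of 10 mature OL markers. They held 298 control and 471 WMI OPC-like cells, 144 and 434 pre-OL-like cells, and 96 and 51 mature OL-like cells. The libraries differed in ways that their labels do not give. The control library held 4 UMIs of *Xist*, an RNA of the inactive X chromosome, and the WMI library 38484. The median mitochondrial share was 0.0604% and 0.448%. At a finer clustering (resolution 1.6), a cluster named striatal projection neuron by 8 of 8 markers held 0 control and 142 WMI cells. With predicted doublets kept, a cluster of that name held 6 and 154. Whether the same region was dissected in both groups was not tested. In OPC-like cells the summed level of 8 microglial markers went from 176 CPM (counts in 1000000 UMIs) in control to 477 CPM in WMI cells. The part of these differences in the values that follow was not tested. Some values are also given without cells with *Xist* or without cells above 1% mitochondrial UMIs. Such a cut does not make the libraries alike. An *Xist* UMI was found in 4780 of 7571 WMI cells, and the other cells come from the same library. In addition, 36 barcodes occurred in both libraries. Levels are given as CPM over a class, with exact Poisson 95% intervals, and differences are log2 ratios of levels with exact conditional binomial 95% intervals. Both kinds of interval cover counting error only. A gene is called different when it had at least 50 UMIs over both libraries and differed by at least 1.5-fold.

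**Figure D1:**
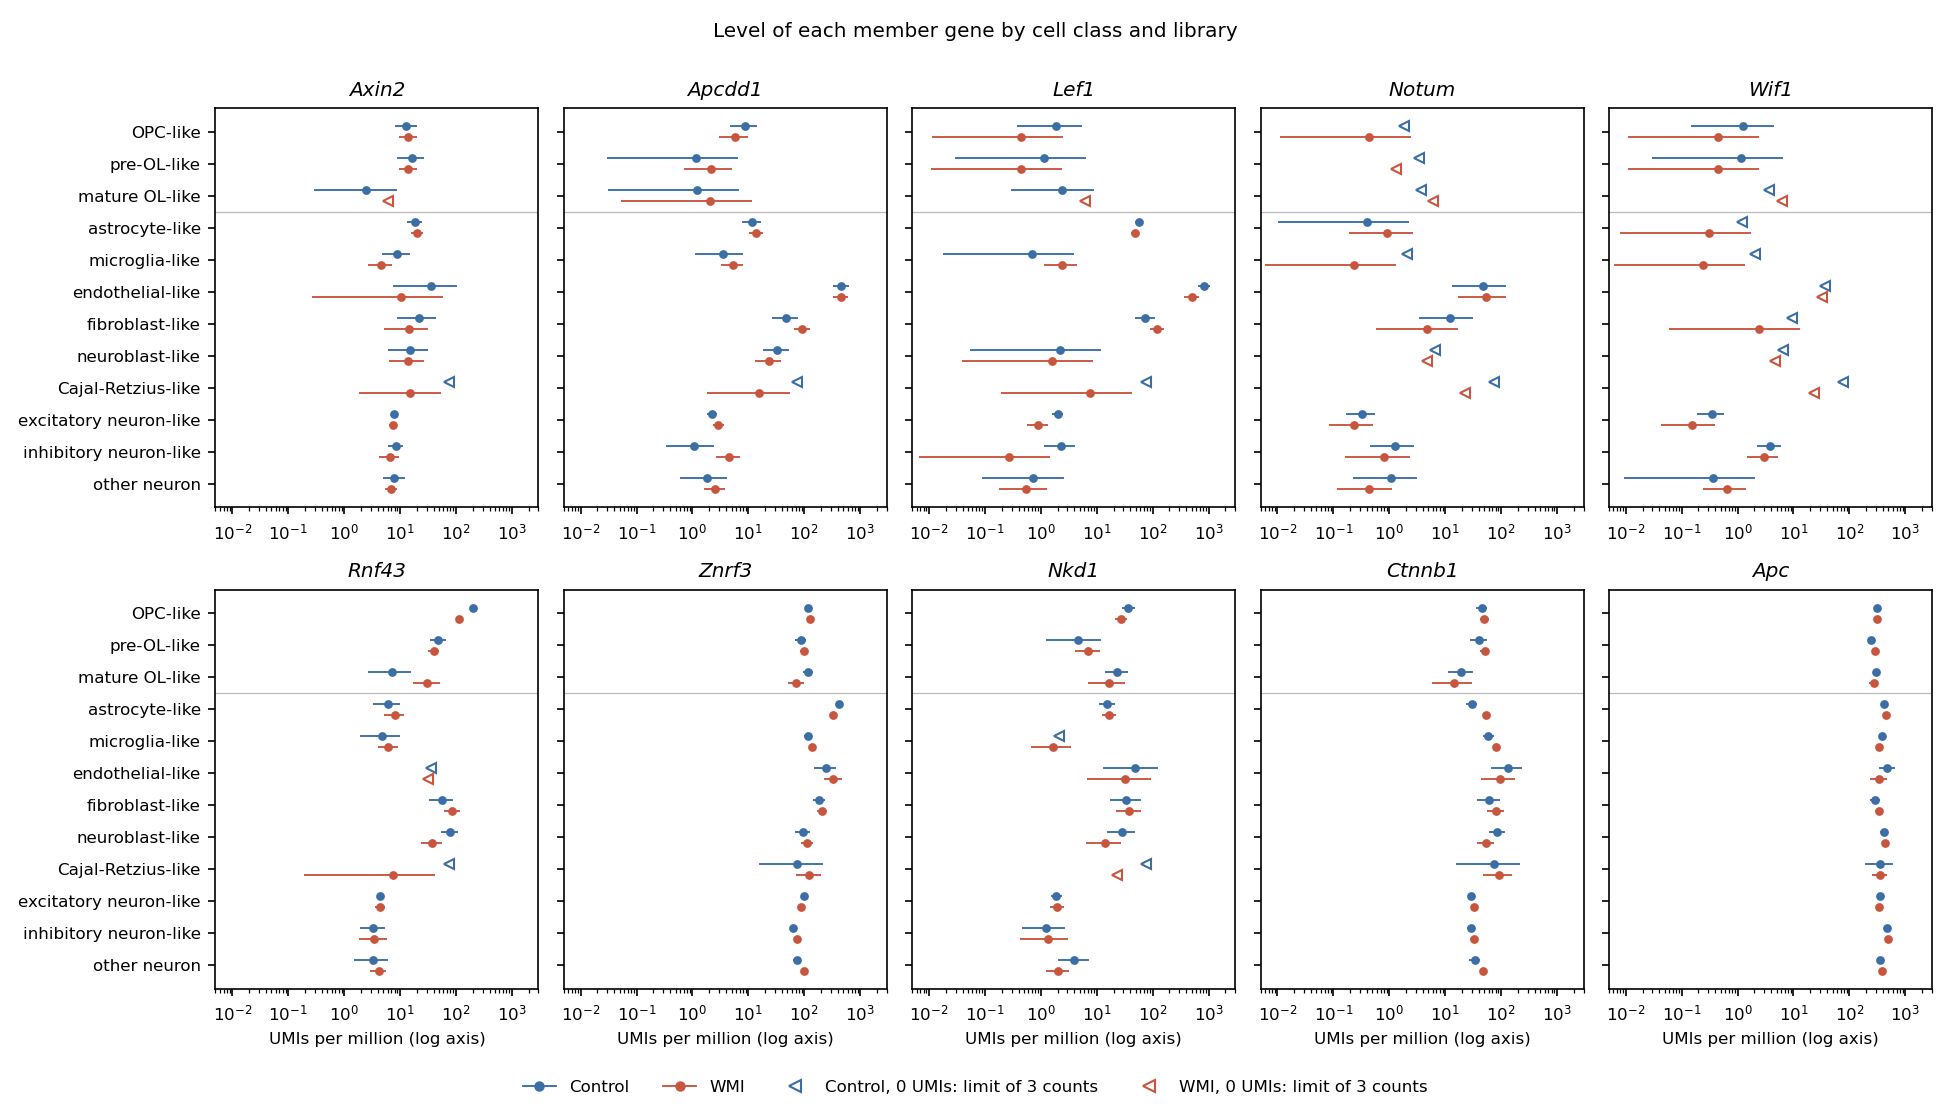
Levels of the 10 genes (log axis, CPM) in 12 named cell classes of the control (blue) and WMI (red) libraries; bars are 95% Poisson intervals and open triangles mark the limit that 3 counts would set where no UMI was found. *Rnf43* was highest in OPC-like cells (201 and 112 CPM), *Znrf3* in astrocyte-like cells (412 and 332), and *Lef1* and *Apcdd1* in endothelial-like cells. In the WMI library the highest class of *Rnf43* and of *Znrf3* had an interval that overlapped that of the next class.

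*Rnf43* had its highest level in OPC-like cells, and there it was lower in the WMI library. *Rnf43* (ENSMUSG00000034177, plus strand of chromosome 11, 87662722 to 87735539 in GRCm38) encodes a membrane E3 ubiquitin ligase that removes Frizzled receptors from the cell surface. OPC-like cells held 327 UMIs of *Rnf43* in 175 of 298 control cells and 256 UMIs in 168 of 471 WMI cells. The level was 201 CPM (180.2 to 224) in control cells and 112 CPM (98.9 to 127) in WMI cells, and these intervals did not overlap. In the WMI library fibroblast-like cells came next, at 86.1 CPM (60.3 to 119), and their interval overlapped that of OPC-like cells. The log2 ratio of WMI to control was -0.84 (-1.09 to -0.60), which placed *Rnf43* 129th from the lowest of the 8410 genes with at least 50 UMIs in these cells. The median ratio of those genes was 0.042.

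The same UMIs were also counted by cell, which adds no replicate. In the control library, 123 OPC-like cells had no *Rnf43* UMI, 90 had 1, 47 had 2 and 38 had at least 3, with a highest value of 11. In the WMI library the numbers were 303, 111, 38 and 19, with a highest value of 5. After each cell was thinned to 1000 UMIs, 16.8% of control and 8.70% of WMI OPC-like cells held *Rnf43* (58.7% and 35.7% before thinning). Excitatory neuron-like cells, taken as the background for free RNA, held it in 0.587% and 0.677% after thinning. These are shares in 1 random draw, and the means over all draws were 17.2% and 9.998% in OPC-like cells and 0.522% and 0.474% in excitatory neuron-like cells. The median depths were 5057.5 and 4367 UMIs in OPC-like cells and 5895 and 9092 in excitatory neuron-like cells. The excitatory neuron-like class was a different mix in each library, since cluster 0 gave 2294 of 5283 control but 185 of 2363 WMI cells. Whether these neurons make *Rnf43* themselves was not tested.

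**Figure D2:**
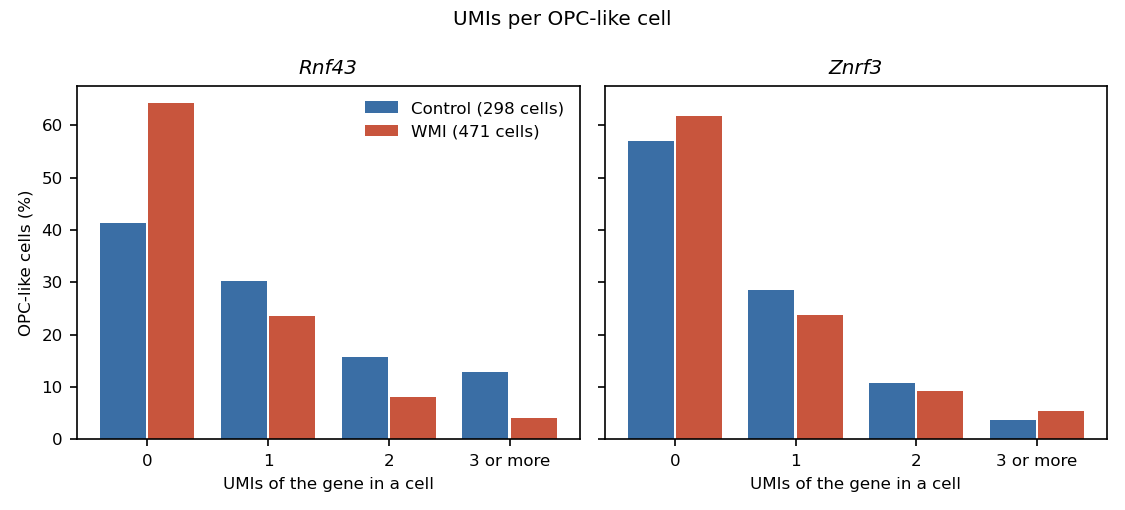
Share of OPC-like cells (%) with 0, 1, 2 or at least 3 UMIs of *Rnf43* (left) and *Znrf3* (right) in the control library (298 cells) and the WMI library (471 cells). For *Rnf43*, 123 control and 303 WMI cells had no UMI, and for *Znrf3* 170 and 291.

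OPC-like cells of the libraries also differed in other genes. The summed level of 9 OPC markers was 12616 CPM in control and 12749 CPM in WMI cells. Singly these markers went both ways, from -0.64 for *Neu4* (-1.07 to -0.22) to 0.69 for *Matn4* (0.46 to 0.93), and those 2 were past 1.5-fold. *Vcan* was at -0.40 and *C1ql1* at 0.41, while *Pdgfra* (-0.17, -0.31 to -0.03) and *Cspg4* (-0.14, -0.34 to 0.06) lay closer to 0. The 11 pre-OL markers also went both ways. At least 1 of *Gpr17*, *Enpp6* and *Bmp4*, which were picked after their values were seen, was found in 42.6% of control and 58.6% of WMI OPC-like cells. Of the other 8, 6 were found in a smaller share of the WMI cells, such as *Tmem163* (71.1% and 59.7%) and *Bcas1* (73.2% and 67.5%). These shares were not thinned to equal depth. In the cells without a UMI of *Gpr17*, *Enpp6* or *Bmp4* (171 control, 195 WMI), the log2 ratio of *Rnf43* was -0.84 (-1.25 to -0.44). In cells without *Xist* it was -0.81, and in cells with at most 1% mitochondrial UMIs it was -0.74. *1110028F11Rik*, which is annotated on the same strand within *Rnf43*, had 0 UMIs in OPC-like cells of both libraries.

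In pre-OL-like cells the libraries were closer. Pre-OL-like cells held *Rnf43* at 48.6 CPM (35.0 to 65.6, 42 UMIs) in the control library and 39.9 (32.1 to 48.9, 91 UMIs) in the WMI library, a log2 ratio of -0.28 (-0.83 to 0.28). Mature OL-like cells held 6 UMIs in 96 control cells (7.32 CPM, 2.69 to 15.9) and 15 UMIs in 51 WMI cells (30.9, 17.3 to 51.0). Here the direction was the opposite, with a log2 ratio of 2.08 (0.63 to 3.73) on 21 UMIs in all. In these cells the summed OPC markers stood at 441 CPM for control and 1050 CPM for WMI, and the summed pre-OL markers at 2675 and 5153 CPM. The part of such cells in this difference was not tested. Within each library, the step from OPC-like to pre-OL-like cells was -2.05 (-2.55 to -1.59) in the control and -1.49 (-1.85 to -1.14) in the WMI library on the log2 scale.

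*Znrf3*, the paralogue of *Rnf43* with the same role (ENSMUSG00000041961, minus strand of chromosome 11, 5276324 to 5444847), did not share this pattern. In OPC-like cells it was at 118 CPM (102 to 136, 191 UMIs) in the control library and 128 (114 to 144, 293 UMIs) in the WMI library, a log2 ratio of 0.13 (-0.14 to 0.40). In pre-OL-like cells it was at 86.7 and 97.7 CPM. Mature OL-like cells held 118 (96.0 to 144) in the control and 72.2 (50.3 to 100.4) in the WMI library, a log2 ratio of -0.71 (-1.32 to -0.14). Its highest level was in astrocyte-like cells, at 412 (387 to 438, 1030 UMIs) and 332 CPM (312 to 352, 1076 UMIs), and the log2 ratio was -0.31 (-0.44 to -0.19). In the WMI library endothelial-like cells were not apart from them, at 329 CPM (224 to 467, 31 UMIs).

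The *Znrf3* difference in astrocyte-like cells differed between their clusters. Cluster 7 (402 control and 338 WMI cells) held 424 (397 to 453) and 414 (386 to 444) CPM. The log2 ratio was -0.03 (-0.17 to 0.10). Cluster 14, which is led by *A2m* and the intermediate filament gene *Gfap* (79 and 289 cells), held 338 (281 to 404) and 210.5 (186 to 237). The log2 ratio there was -0.68 (-0.998 to -0.36). Clusters were compared only within the class, and which mice they came from is not known.

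*Nkd1* and *Axin2* are cytoplasmic feedback inhibitors: NKD1 binds Dishevelled, and AXIN2 is a scaffold of the destruction complex and a widely used readout of the pathway. *Nkd1* (ENSMUSG00000031661, plus strand of chromosome 8, 88521354 to 88594884) had 60 UMIs in 49 control OPC-like cells and 62 UMIs in 59 WMI OPC-like cells. This gave 37.0 CPM (28.2 to 47.6) and 27.2 (20.8 to 34.8), and the log2 ratio was -0.44 (-0.98 to 0.09). The highest *Nkd1* level was in endothelial-like cells of the control library, at 48.1 CPM (13.1 to 123, 4 UMIs). In the WMI library it was in fibroblast-like cells, at 38.3 CPM (21.9 to 62.1, 16 UMIs). Both intervals overlapped that of OPC-like cells in the same library. In pre-OL-like cells only 4 and 16 UMIs were found, at 4.62 (1.26 to 11.8) and 7.01 CPM (4.01 to 11.4). The step from OPC-like to pre-OL-like cells was therefore -3.00 (-4.92 to -1.57) in the control and -1.96 (-2.85 to -1.14) in the WMI library. In mature OL-like cells the level was again higher than in pre-OL-like cells, at 23.2 CPM (14.0 to 36.2, 19 UMIs) in the control and 16.5 (7.12 to 32.5, 8 UMIs) in the WMI library.

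*Axin2* (ENSMUSG00000000142, plus strand of chromosome 11, 108920349 to 108950783) was rare in every class. OPC-like cells held 21 UMIs in the control and 32 in the WMI library, at 12.9 CPM (8.01 to 19.8) and 14.0 (9.60 to 19.8). Pre-OL-like cells held 16.2 (8.85 to 27.2, 14 UMIs) and 14.0 (9.59 to 19.8, 32 UMIs). Neither the OPC-like and pre-OL-like stages nor the libraries could be told apart here, and the interval of the log2 ratio in OPC-like cells ran from -0.72 to 0.98. Mature OL-like cells held 2 UMIs in the control library and none in the WMI library, which allows up to 6.19 CPM. Astrocyte-like cells held 18.4 (13.5 to 24.5) and 20.4 (15.7 to 25.9), the highest level in the WMI library. In the control library endothelial-like cells came first, at 36.1 CPM (7.44 to 105) on 3 UMIs.

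**Figure D3:**
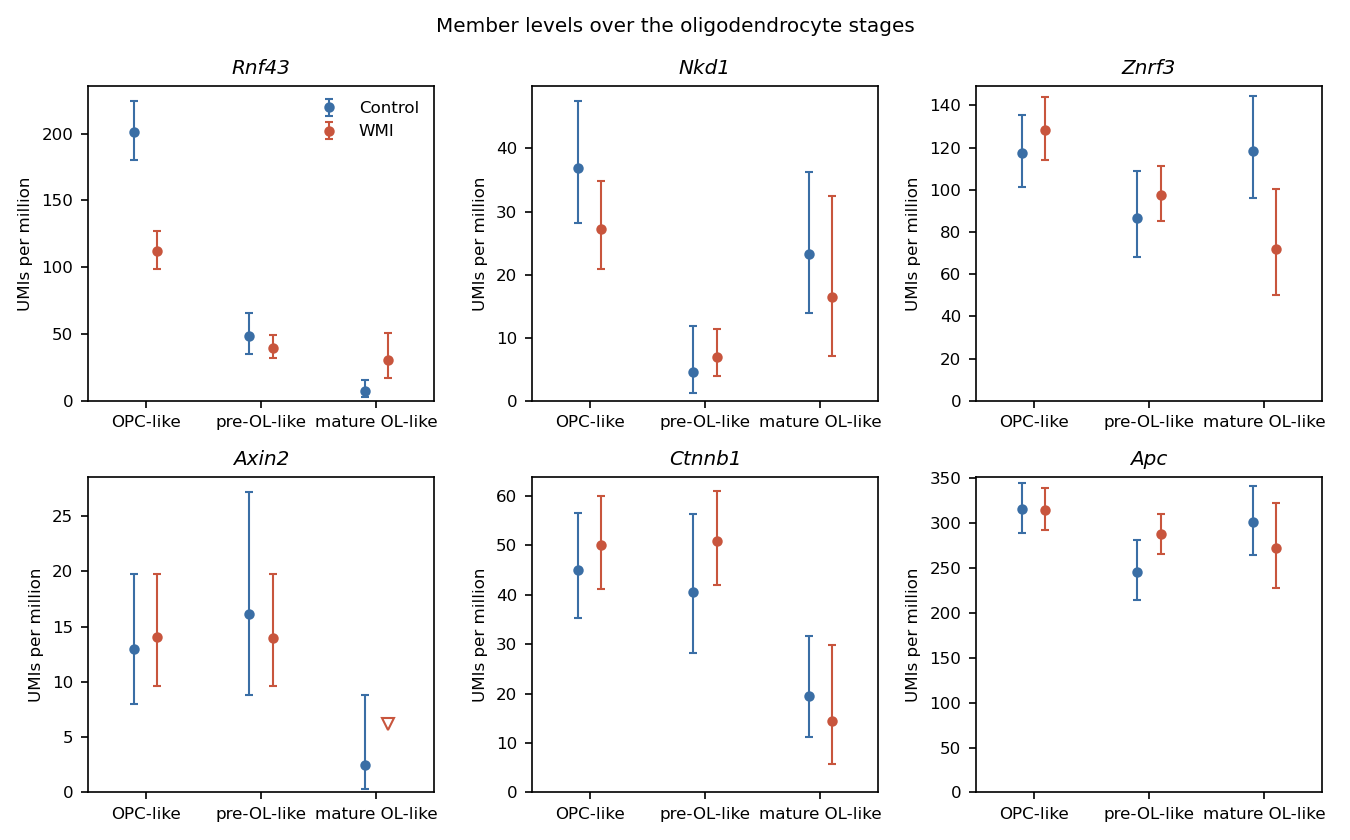
Levels of 6 members (CPM, linear axes from 0) in OPC-like, pre-OL-like and mature OL-like cells of the control (blue) and WMI (red) libraries; bars are 95% Poisson intervals and the open triangle marks the limit of 3 counts where no UMI was found. *Rnf43* and *Nkd1* were lower in pre-OL-like than in OPC-like cells of both libraries, and *Ctnnb1* was lower in mature OL-like than in pre-OL-like cells.

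*Ctnnb1* (β-catenin, ENSMUSG00000006932, plus strand of chromosome 9, 120929216 to 120960507) was similar at the OPC-like and the pre-OL-like stage. The control library held 45.0 CPM (35.2 to 56.5) at the first and 40.5 (28.2 to 56.3) at the later stage, and the WMI library 49.98 (41.2 to 60.04) and 50.8 (42.0 to 60.9). Mature OL-like cells were lower, with 19.5 (11.2 to 31.7, 16 UMIs) in the control and 14.4 (5.803 to 29.7, 7 UMIs) in the WMI library. From pre-OL-like to mature OL-like cells the log2 ratio was -1.05 (-2.003 to -0.16) and -1.82 (-3.16 to -0.73). Of the members with at least 50 UMIs, *Ctnnb1* alone was called lower in this step, 1 of 3 in the control library, where 22.2% of 5012 genes were lower, and 1 of 4 in the WMI library, where 36.4% of 7001 were. Over all classes *Ctnnb1* was highest in endothelial-like cells, at 132 CPM (66.1 to 237, 11 UMIs) and 95.5 (43.7 to 181, 9 UMIs). These intervals overlapped those of the next class.

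In astrocyte-like cells *Ctnnb1* was higher in the WMI library. The control library held 75 UMIs in 69 cells (29.996 CPM, 23.6 to 37.6) and the WMI library 177 UMIs in 150 cells (54.6, 46.8 to 63.3), a log2 ratio of 0.86 (0.47 to 1.27). Cluster 7 held 28.9 and 57.0 CPM and cluster 14 held 36.3 and 51.1, so that the WMI library was higher in each. *Ctnnb1* was the member called higher of 7 with at least 50 UMIs, in a class where 15.2% of 10481 genes were higher. In microglia-like cells it was at 59.6 (47.7 to 73.6) and 80.9 CPM (72.5 to 90.01), and the log2 ratio was 0.44 (0.10 to 0.80). At a resolution of 1.6 these cells fell into clusters with unlike shares of the libraries, and in cluster 10, which held 398 of the control and 118 of the WMI cells, the levels were 62.2 and 44.2 CPM (82 and 23 UMIs), so that the direction was not the same there.

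*Apc* (ENSMUSG00000005871, plus strand of chromosome 18, 34220924 to 34322552), a core part of the destruction complex, was found in every named class. Its level lay between 246 CPM in control pre-OL-like cells (214 to 282) and 480.4 in WMI inhibitory neuron-like cells (459 to 503), and these intervals lay apart. OPC-like cells held 316 CPM (289 to 345) in the control and 315 CPM (293 to 339) in the WMI library. The log2 ratio was -0.0035 (-0.17 to 0.16). With 513 and 719 UMIs, a difference of 1.5-fold would have been outside this interval. Pre-OL-like cells held 246 (214 to 282) and 288 (266 to 311).

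*Lef1*, which encodes a DNA-binding partner of β-catenin (ENSMUSG00000027985, plus strand of chromosome 3, 131110471 to 131224356), was almost absent from the OL lineage. Each stage held at most 3 UMIs per library. Its highest level was in endothelial-like cells, at 830.2 CPM (646 to 1051, 69 UMIs in 17 of 22 cells) in the control and 499 (367 to 663, 47 UMIs in 14 of 17 cells) in the WMI library. The log2 ratio was -0.73 (-1.30 to -0.18), but with predicted doublets kept the class grew to 29 and 43 cells, also held all 6 Cajal-Retzius markers, and had levels of 541 and 166 CPM. After endothelial-like cells came fibroblast-like cells, at 74.2 CPM (47.5 to 110) in the control and 122 (90.8 to 160) in the WMI library. Their control interval overlapped that of astrocyte-like cells. Astrocyte-like cells followed, with 142 UMIs in 81 control cells (56.8 CPM, 47.8 to 66.9) and 156 in 100 WMI cells (48.1, 40.9 to 56.3). Here cluster 7 held 63.9 (53.7 to 75.6) and 45.6 (36.5 to 56.1), and cluster 14 held 14.0 (4.54 to 32.6, 5 UMIs) and 51.9 (40.3 to 65.7, 68 UMIs). In excitatory neuron-like cells *Lef1* was at 2.00 (1.59 to 2.49) and 0.893 (0.566 to 1.34) CPM. The log2 ratio was -1.17 (-1.90 to -0.48), and 22 of its 81 control UMIs came from 9 cells of cluster 22. With predicted doublets kept, that ratio was -0.03.

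*Apcdd1*, *Notum* and *Wif1* act outside the cell: APCDD1 is a membrane protein that inhibits Wnt signalling, NOTUM removes the lipid that Wnt proteins need, and WIF1 binds Wnt proteins. *Apcdd1* (ENSMUSG00000071847, plus strand of chromosome 18, 62922231 to 62961179) was highest in endothelial-like cells, at 457 (324 to 628, 38 UMIs) and 456 CPM (330.3 to 615, 43 UMIs). Levels of 46.4 (25.9 to 76.5) and 90.9 (64.3 to 125) followed in fibroblast-like cells, and 32.5 (18.2 to 53.6) and 23.4 (13.1 to 38.6) in neuroblast-like cells. In OPC-like cells it was at 8.62 (4.71 to 14.5, 14 UMIs) and 5.70 (3.03 to 9.745, 13 UMIs), and in pre-OL-like cells 1 and 5 UMIs were found.

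*Notum* (ENSMUSG00000042988, minus strand of chromosome 11, 120653788 to 120661175) had 60 UMIs in all kept cells. Of these, 4 and 5 were in endothelial-like cells, at 48.1 (13.1 to 123) and 53.1 CPM (17.2 to 124), and the OL lineage held 1. *Wif1* (ENSMUSG00000020218, plus strand of chromosome 10, 121033960 to 121100650) had 67 UMIs. It was highest in inhibitory neuron-like cells, at 3.78 (2.24 to 5.97, 18 UMIs) and 2.91 (1.45 to 5.21, 11 UMIs), and OPC-like cells held 2 and 1 UMIs. No difference between the libraries in these genes was detectable at this depth.

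With the OPC-like and pre-OL-like classes summed, 6 of the 10 members had at least 50 UMIs. None was called higher in the WMI library, where 8.5% of 10654 genes were, and 2 were called lower (*Rnf43* and *Nkd1*), where 4.94% were. The log2 ratios were -0.96 (-1.18 to -0.75) for *Rnf43* and -0.59 (-1.09 to -0.09) for *Nkd1*. The mix of stages enters these values, since 67.4% of the 442 control cells but 52.0% of the 905 WMI cells were OPC-like. The mean of the OPC-like and pre-OL-like log2 ratios was -0.56 for *Rnf43* and 0.078 for *Nkd1*, both under 1.5-fold. This mean is not the ratio that an equal mix of the stages would give, which was not computed. For *Nkd1* it includes a pre-OL-like ratio of 0.60 (-1.03 to 2.64) on only 4 and 16 UMIs. Within OPC-like cells alone, *Rnf43* was the member called lower of 6, in a class where 4.2% of 8410 genes were lower, and in pre-OL-like cells none of the 4 members with enough UMIs was called in either direction, where 16.2% of 7525 genes were. The median ratio of the 6 members was 0.022 in the summed classes, beside 0.048 over all genes.

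**Figure D4:**
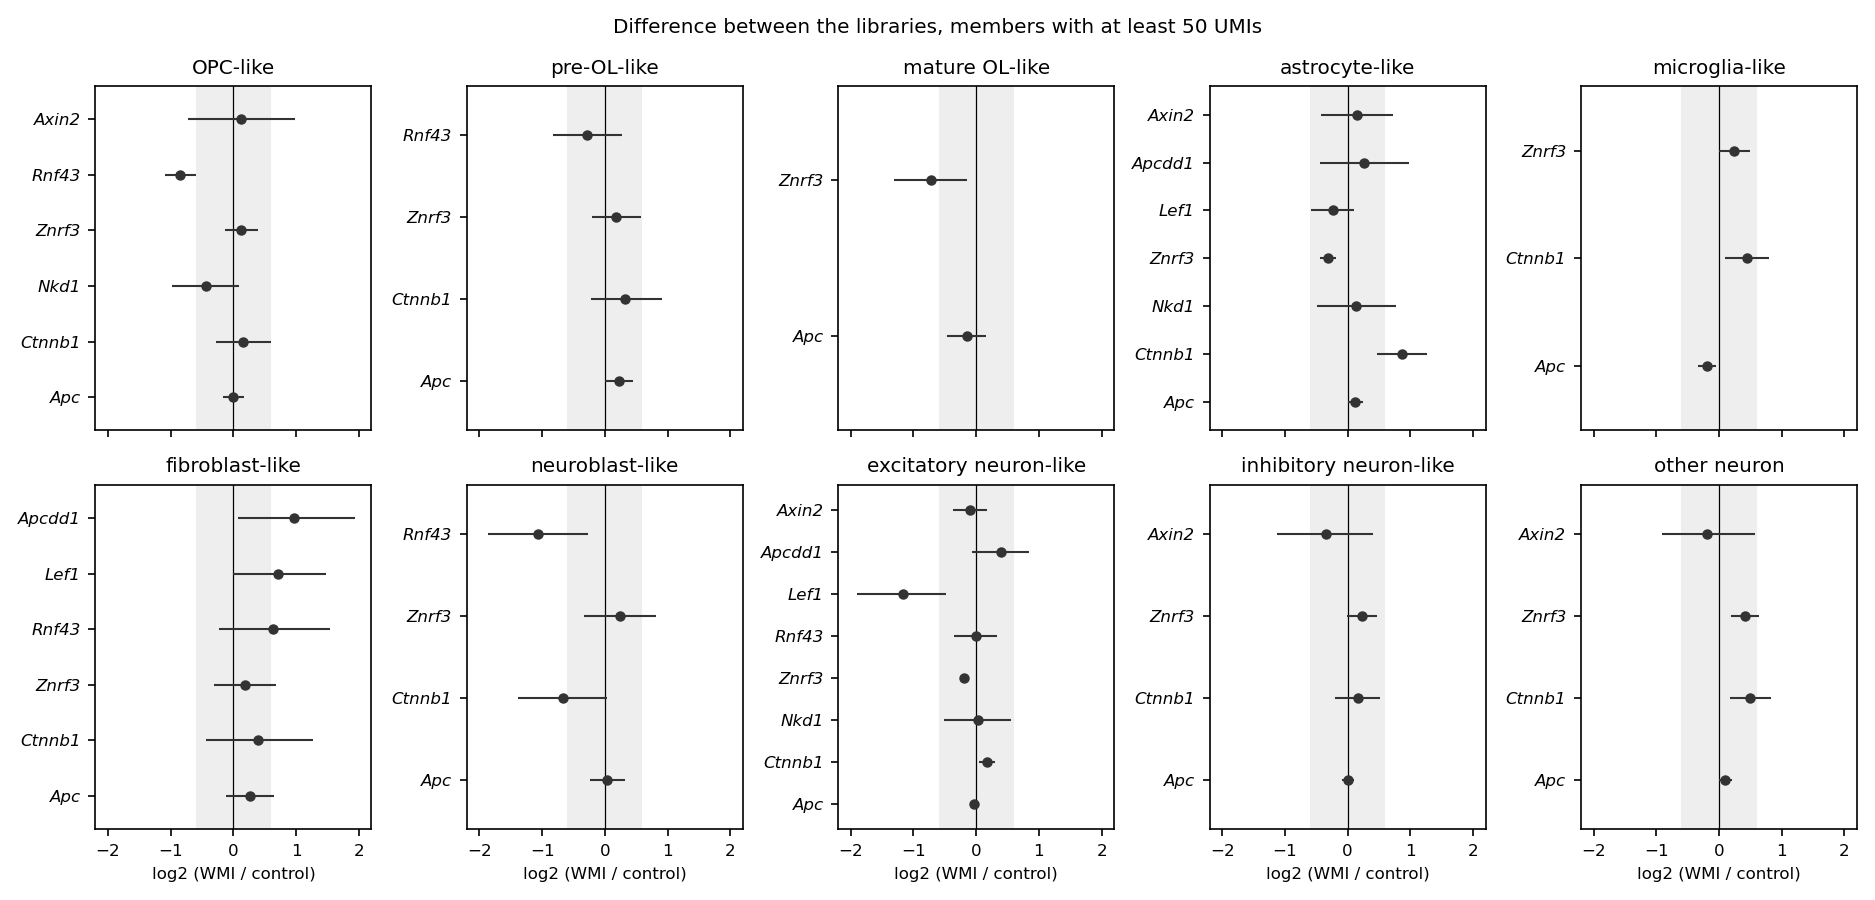
Log2 ratios of WMI to control for the members with at least 50 UMIs in each of 10 cell classes; bars are exact 95% intervals for counting error and the grey band marks differences under 1.5-fold. In OPC-like cells the interval of *Rnf43* (-1.09 to -0.60) lay below the band, and in astrocyte-like cells *Ctnnb1* stood at 0.86.

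Members were also called in other classes. Neuroblast-like cells (81 control, 152 WMI), which also met 5 of 9 OPC markers, held *Rnf43* at 78.0 CPM (54.7 to 108, 36 UMIs) and 37.5 (24.0 to 55.7, 24 UMIs), a log2 ratio of -1.06 (-1.87 to -0.27). *Ctnnb1* was at 84.5 (60.1 to 116) and 53.1 (36.8 to 74.2) there, with an interval that included 0. These 2 were the members called lower of 4, in a class where 5.68% of 3946 genes were lower. The neuroblast-like class itself was not stable, since with doublets kept or at a resolution of 1.6 the cells of that name held 10 and 5 *Rnf43* UMIs in all. Both of these clusterings had a further cluster named OPC-like and led by *Top2a*. It held 40 control and 79 WMI cells with doublets kept, and 34 and 64 at a resolution of 1.6. Whether its cells were part of the neuroblast-like class before was not tested. In fibroblast-like cells 3 of 6 members were called higher (*Apcdd1*, *Lef1* and *Rnf43*), where 11.9% of 3033 genes were. The class joined clusters 26 (33 control and 63 WMI cells, which also met 6 of 8 mural markers) and 30 (20 and 14 cells), and in cluster 26 alone the levels were 82.5 and 116 CPM for *Apcdd1*, 132 and 153 for *Lef1*, and 82.5 and 97.9 for *Rnf43*, all under 1.5-fold. In mature OL-like cells *Znrf3* was called lower, 1 of 2 members, where 15.8% of 3910 genes were. In excitatory neuron-like cells *Lef1* was called lower, 1 of 8, where 7.45% of 17224 genes were. No member was called in microglia-like, inhibitory neuron-like or other neuron-like cells, where 26.2%, 11.5% and 21.6% of genes differed by at least 1.5-fold in either direction.

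Between OPC-like and pre-OL-like cells, *Rnf43* and *Nkd1* were called lower in both libraries, 2 of 5 members with at least 50 UMIs in the control and 2 of 6 in the WMI library. The shares of all genes that were lower were 19.4% and 15.3%. *Znrf3* was at -0.44 (-0.85 to -0.05) and -0.40 (-0.65 to -0.14), and *Apc* at -0.36 (-0.60 to -0.13) and -0.13 (-0.29 to 0.02). Because *Rnf43* and *Nkd1* moved together in this step, the 250 bases before their RefSeq start sites are shown, in GRCm38.p6 and 5′ to 3′ on the plus strand. Capitals mark the E-box CAGCTG. The first *Rnf43* start site has the window chr11:87662837-87663086, and *Nkd1* has chr8:88527383-88527632. Both windows lie within the annotated genes.
Rnf43: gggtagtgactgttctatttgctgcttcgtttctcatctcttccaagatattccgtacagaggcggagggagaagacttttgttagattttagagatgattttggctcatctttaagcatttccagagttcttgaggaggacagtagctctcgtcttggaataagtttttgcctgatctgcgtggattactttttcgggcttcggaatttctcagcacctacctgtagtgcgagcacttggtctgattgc
Nkd1: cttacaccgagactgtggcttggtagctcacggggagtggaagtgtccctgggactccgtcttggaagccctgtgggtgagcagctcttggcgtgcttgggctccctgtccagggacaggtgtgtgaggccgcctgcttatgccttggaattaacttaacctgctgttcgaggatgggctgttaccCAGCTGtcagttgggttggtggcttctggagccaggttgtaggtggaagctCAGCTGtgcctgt

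The TCF/LEF core CTTTGAT was searched for on both strands (ATCAAAG on the other) and was found in 0 of the 11 upstream windows of the 6 members that matched the table (*Axin2*, *Lef1*, *Wif1*, *Rnf43*, *Nkd1* and *Ctnnb1*). Of 32851 windows of all genes, 3.21% held it. The E-box CAGCTG, which reads the same on both strands and does not overlap the other motif, was searched for after the *Nkd1* window had been read. It occurred at 64 and 13 bases before the *Nkd1* start site and once in a *Lef1* window. Of all windows 13.001% held it and 1.26% held it at least 2 times. These are matches of letters in a short window and not binding sites.

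Of 106 other Wnt pathway genes in the tables, 59 had at least 50 UMIs in the summed OPC-like and pre-OL-like classes. Their median log2 ratio of WMI to control was 0.041, beside 0.048 for all genes. *Ccnd1* (cyclin D1) was called higher and *Cby1* (Chibby, an inhibitor of β-catenin) lower, 1 gene in each direction, where 8.5% and 4.94% of all genes were. *Ccnd1* was at 11.7 CPM in the control (29 UMIs) and 21.3 in the WMI library (97 UMIs), a log2 ratio of 0.87 (0.26 to 1.52). *Cby1* was at 15.7 (39 UMIs) and 6.35 (29 UMIs), a log2 ratio of -1.30 (-2.05 to -0.57). By stage it had fewer than 50 UMIs, with 18 and 15 in OPC-like cells (-0.75, -1.85 to 0.32) and 21 and 14 in pre-OL-like cells (-1.99, -3.07 to -0.94), and these intervals overlapped.

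By role, no gene was called between the libraries among 3 ligands, 2 genes of ligand release (*Porcn* and *Wls*), 8 receptors, 4 genes of the R-spondin branch, 3 secreted antagonists and 20 genes of the cytoplasmic relay. *Cby1* was 1 of 15 nuclear factors and *Ccnd1* 1 of 5 common targets. Within OPC-like cells alone, 6 of 52 pathway genes were called, 4 higher and 2 lower, where 7.87% and 4.2% of all genes were. The higher ones were *Ccnd1* (14.8 and 33.8 CPM), the receptor *Ror2* (7.39 and 17.5), *Csnk1g2* (12.3 and 21.04) and *Tcf7l2* (132 and 199.9), and the lower ones *Ctbp1* (25.3 and 14.0) and the R-spondin gene *Rspo2* (24.6 and 16.2). R-spondins are secreted ligands that take RNF43 and ZNRF3 off the membrane. The intervals of *Csnk1g2* and *Rspo2* included 0. Within pre-OL-like cells, 4 of 34 were called higher and none lower, where 10.3% and 5.86% were. Of these *Ryk*, a Wnt co-receptor (31.2 and 55.6 CPM, 0.83, 0.23 to 1.49), had an interval that excluded 0, and *Lgr4*, *Csnk1e* and *Dact3* did not.

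The step from OPC-like to pre-OL-like cells separated more of these genes than the libraries did. The stages are clusters made from expression, so large steps between them are not particular to these genes. The step was at least 2-fold higher in both libraries for 3 of the 59 (4.44% of all genes) and at least 2-fold lower for 7 (5.4%). The nuclear factor *Tcf7l2* was at 132 and 199.9 CPM in OPC-like cells and at 2113 and 1677 in pre-OL-like cells, a log2 step of 4.00 in the control and 3.07 in the WMI library. *Tcf7l2* was thus higher in WMI OPC-like cells (0.60, 0.36 to 0.84) and lower in WMI pre-OL-like cells (-0.33, -0.41 to -0.25), the latter by less than 1.5-fold. It was also among the leading genes of the pre-OL-like cluster. The part of the mix of stages within each class in these values was not tested. The related *Tcf7l1* had steps of 2.87 and 2.37. *Wls*, which carries Wnt proteins to the cell surface, had steps of 1.87 and 1.20.

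Lower in pre-OL-like cells were the ligands *Wnt7a* (-2.34 in the control, -2.001 in the WMI library) and *Wnt7b* (-2.74 and -1.72), each on few UMIs, and the receptor *Ror1* (-2.70 and -2.68). The other four were *Tspan12*, a partner of Frizzled 4 (-1.09 and -1.77), *Kremen1*, a receptor for Dickkopf proteins (-1.59 and -1.34), the co-repressor *Tle1* (-1.34 and -1.02) and *Ccnd1* (-1.35 and -1.95). *Rnf43* and *Nkd1* lay among these genes.

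**Figure D5:**
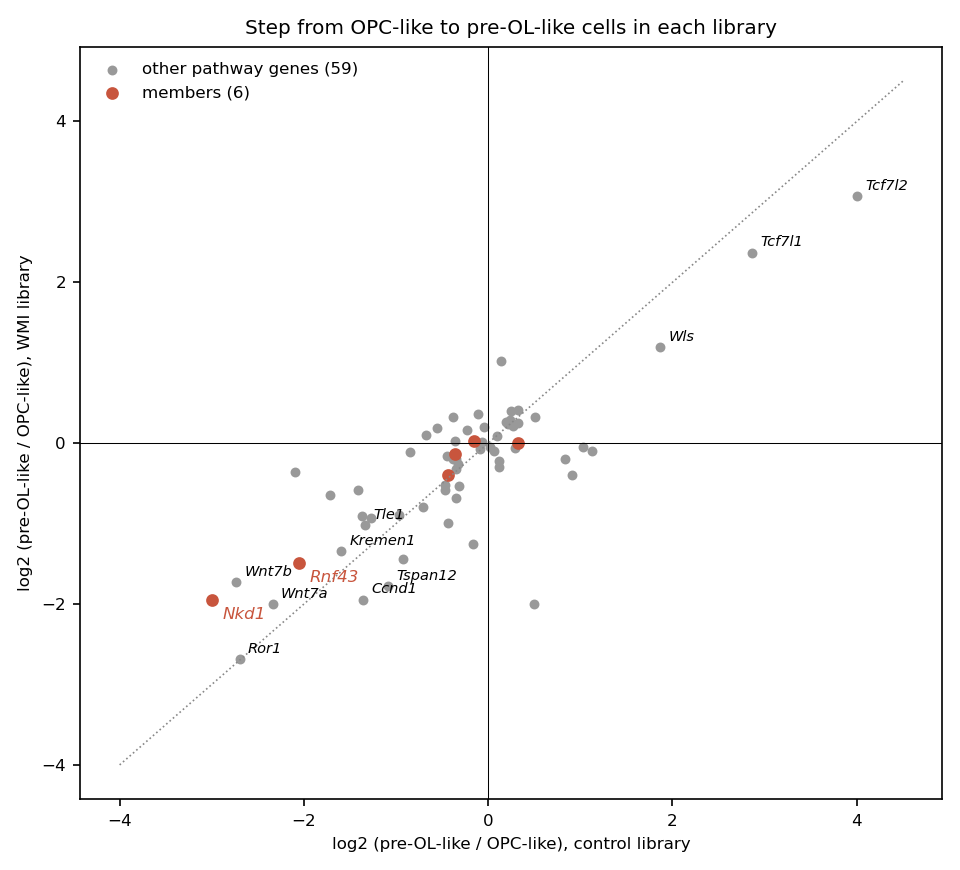
Log2 ratio of pre-OL-like to OPC-like cells in the control library (x) and the WMI library (y) for 59 other Wnt pathway genes (grey) and 6 members (red); the dotted line marks equal values. *Tcf7l2* (4.00 and 3.07) stands at the upper end, and *Rnf43* (-2.05 and -1.49) and *Nkd1* (-3.00 and -1.96) at the lower end.

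The genes whose levels were most like those of single members were found over 20 points, 10 classes in each of the 2 libraries, by Pearson's r of log2(level + 1). These points share libraries and cells, so that r is only a description. For *Rnf43* they were *Sema3d* (0.91), *C430049B03Rik* (0.91) and the OPC marker *Cspg4* (0.88), and for *Nkd1* *Cachd1* (0.87), *Pard3* (0.87) and *Cntln* (0.85). *Lef1* was closest to *Gjb6* (0.97), *Gm5089* (0.96) and *Aldh1a1* (0.94), and *Znrf3* to *Foxo1* (0.92), *Glud1* (0.91) and *Glul* (0.91). For *Ctnnb1* the values were 0.92 for *Mettl14*, 0.89 for *Arfgef1* and 0.88 for *Btg2*, for *Apcdd1* 0.92 for *Sh3bgrl*, 0.89 for *Tdp2* and 0.88 for *2700081O15Rik*, and for *Axin2* 0.91 for *Zdhhc21*, 0.89 for *Gm32618* and 0.89 for *AC154486.3*. Endothelial-like cells, which numbered under 50 per library, were not among the points.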

How the data were processed

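The data were UMI counts of 1 control and 1 WMI library of mouse cerebral cortex. The authors deposited whole-number counts per gene and barcode from Cell Ranger 6.1.1 (per the file headers), without normalization. The submitters' processing notes name the build mm9, but all 55450 gene identifiers occur in GENCODE M21 (GRCm38), whose coordinates are given here. The study's methods describe 4 replicates per group, and 1 library each was analysed here.

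Kept cells had at least 1000 UMIs, at least 500 genes and at most 10% mitochondrial UMIs, and predicted doublets were removed (785 control, 542 WMI, at 0.8% per 1000 barcodes). The libraries held 66470806 and 60568639 UMIs in 10288 and 8354 barcodes, and this depth sets the intervals. Cells were integrated and clustered with Seurat 5.3.0 in R 4.3.3 (2000 features without the pathway and cell-cycle genes, 30 dimensions, resolution 0.8). Clusters needed at least 4 markers and 50% of a list for a name (60% for neurons). Clusters led by haemoglobin or mitochondrial genes stayed unnamed (1201 control and 1060 WMI cells).

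UMIs were summed per class and library. A level of 0 was given the limit of 3 counts. All 10 members are named, together with their highest class, pathway genes called between libraries or at least 2-fold between stages in both, and for members with at least 200 UMIs the 3 genes of most similar pattern (those of *Apc* are not reported here). Genes named beyond this rule (*Xist*, *Gpr17*, *Enpp6*, *Bmp4*, OPC markers, leading genes of clusters, *Porcn*, *Dkk2*, pathway genes called in a single stage) were chosen after their values were seen. The members, lists, thresholds and comparisons were chosen with earlier results of these data known. Intervals and calls were checked on simulated Poisson counts only. Such counts lack the gathering of UMIs in single cells, so the check does not cover it. Alternatives covered doublets, resolution, depth, mitochondrial share, *Xist*, scaling, totals, stage weights and UMI and fold limits. Python 3.11.15, numpy 2.4.6, pandas 2.3.3, scipy 1.17.1 and matplotlib 3.10.9 were used. Promoter windows came from RefSeq on GRCm38.p6. *Apcdd1*, *Notum*, *Znrf3* and *Apc* were not matched.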

Additional observations from a re-analysis of the deposited data

Results flagged for a closer look

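*Rnf43* stood on opposite sides of the control level in different cell classes. Its log2 ratio of WMI to control was -0.84 in OPC-like cells and -1.06 in neuroblast-like cells, but 2.08 in mature OL-like cells, each with a counting interval that excluded 0. The neuroblast-like value did not keep its direction, since it was 0.54 with doublets kept and 0.030 at a resolution of 1.6, on 10 and 5 UMIs. The neuroblast-like cluster also met 5 of 9 OPC markers, and both of these clusterings had a further cluster named OPC-like and led by *Top2a*. At a resolution of 1.6 that further cluster included cells named microglia-like at the resolution of 0.8. The value in mature OL-like cells rests on 21 UMIs (6 in the control and 15 in the WMI library). The difference between the classes was not tested.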

How the results depend on the processing

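Each of 91 values and counts was computed again under the alternatives, which gave 796 values. Of these, 743 stayed within the counting interval or within 1.5 times the count and 50 moved outside it. The other 3 were ratios past 1.5-fold that changed sign. Changes of sign in smaller ratios were counted with the 743 or the 50. In OPC-like cells the log2 ratio of *Rnf43* ranged from -1.11 to -0.74 over 13 alternatives. Not all of these could move it. The OPC-like cluster had the same 298 and 471 cells at a resolution of 0.4. Leaving out clusters with at least 90% of cells from 1 library did not touch it. Such unchanged values are counted with the 743. The mean of the OPC-like and pre-OL-like log2 ratios was -0.56 for *Rnf43* (-0.96 for the summed classes) and 0.078 for *Nkd1* (-0.59 for the summed classes). Each stage counts alike in this mean, whatever its UMIs, and it is not the ratio of an equal mix of the stages. The *Rnf43* ratio in neuroblast-like cells was 0.54 with doublets kept and 0.030 at a resolution of 1.6, where 10 and 5 UMIs remained. Thinning cells to 1000 UMIs, chosen after seeing the data, gave values that turned on the draw. In OPC-like cells *Znrf3* (0.13 before) was at -0.17 in 1 draw, 0.42 in an independent draw and 0.029 in the mean over all draws, and *Rnf43* was at -0.79, -1.11 and -0.83. In pre-OL-like cells *Apc* (0.22 before) was at 0.27, 0.72 and 0.25. In cells with at most 1% mitochondrial UMIs, the step to pre-OL-like cells in the WMI library was -2.97 for *Nkd1* (-1.96 before) and -0.29 for *Apc* (-0.13 before). The cause was not tested.

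The number of members called in the summed classes (2) was 1 with totals that left out mitochondrial, ribosomal protein and *Malat1* UMIs, 1 at 200 UMIs and 0 at 2-fold. In OPC-like cells (1) it was 2 at 20 UMIs and 0 at 2-fold, and in pre-OL-like cells (0) it was 1 at 20 UMIs. For the other pathway genes, the number called in both stages together (2) was 6 with at most 1% mitochondrial UMIs, 6 at 20 UMIs, 0 at 200 UMIs and 1 at 2-fold. In OPC-like cells (6) it was 3 without cells with *Xist*, 11 at 20 UMIs, 1 at 200 UMIs and 2 at 2-fold. In pre-OL-like cells (4) it was 2 with doublets kept, 2 without cells with *Xist*, 2 with median ratio scaling, 11 at 20 UMIs, 0 at 200 UMIs and 0 at 2-fold. With 1 library per group no replicate could be left out. No paired analysis was possible because both libraries carry the number 1 and each group has a single library.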

Other observations

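*Dkk2*, which encodes a secreted modulator of the Wnt co-receptors, was looked at after its values were seen. In microglia-like cells it had 1 UMI in 431 control cells (0.693 CPM) and 250 UMIs in 113 of 1175 WMI cells (59.7 CPM). The log2 ratio was 6.43 with a counting interval from 3.94 to 11.7. The highest count in 1 WMI cell was 12. In cluster 1, the larger of the microglia-like clusters, the UMIs were 1 and 244, and in cluster 29 they were 0 and 6. At a resolution of 1.6, a division looked at after seeing the data, 398 of the 431 control cells were in cluster 10, with 118 WMI cells, and there the UMIs were 1 and 22 (0.759 and 42.3 CPM). Of the 250 UMIs, 210 came from 591 WMI cells of cluster 6, which had 13 control cells. The marker rule left this cluster unnamed at that resolution, and it was led by genes such as *F13a1*, *Gpnmb* and *Ms4a7*. A further 12 UMIs came from 433 WMI cells of cluster 12, which had 10 control cells. The ratio over the class thus compares unlike mixes of cells. In OPC-like cells the levels were 7.39 and 10.5 CPM, in excitatory neuron-like cells 8.48 and 14.4, and in astrocyte-like cells 4.40 and 5.24.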
